A study of Mus musculus with 6 samples.

Results

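The cytosolic ribosomal protein genes are taken here as the protein coding mouse genes whose symbol is Rpl, Rps or Rplp followed by a number and at most a single letter. Of the 52369 genes in the deposited table, 79 met this rule: 46 of the large subunit, 30 of the small subunit and the 3 stalk genes Rplp0, Rplp1 and Rplp2. No measured value entered the choice, and 3 other genes with such symbols were left out as not protein coding. The libraries came from regenerating tibialis anterior muscle of C57BL/6 mice labelled as 6 weeks old. The muscle had been injected at 5 weeks with 50 µl of 10 µM cardiotoxin, a venom toxin that destroys muscle fibres. Both groups then received 6.25 µg of pcDNA3.1 plasmid with an in vivo transfection reagent in 3 rounds, the last on day 4, and were harvested on day 7. The 3 Control libraries carry the genotype label control, and the 3 L7 libraries come from muscle made to overexpress Linc-smad7, a long non-coding RNA. The labels do not say whether each library is a separate animal, so p-values measure the spread between these libraries, which may in part be technical.

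Ribosomal proteins assemble with ribosomal RNA into the small subunit, which decodes the mRNA, and the large subunit, which joins the amino acids. The acidic stalk proteins recruit elongation factors to the large subunit. Most of their mRNAs begin with a run of pyrimidines, the terminal oligopyrimidine tract, through which mTORC1 and LARP1 control their translation together, and growing myoblasts make many ribosomes. Rpl3l is a paralogue of Rpl3 found in mature skeletal and heart muscle, where it replaces Rpl3 in a share of the ribosomes.

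Start-site sequences show which of the named genes carry the pyrimidine run at the annotated start. RefSeq promoter windows (build GRCm38.p6) were found by symbol for 59 of the 79 genes, with 71 annotated starts. An unbroken run of at least 5 C or T letters covering the start was present at 20 of these starts (28.2%), and at 10.1% of all 32851 starts of 27025 genes. The windows of 7 genes named in the results below run from 15 bases before the start through the first 15 transcribed bases, 5′ to 3′ on the gene's strand, with that run in capitals.
Rpl7a: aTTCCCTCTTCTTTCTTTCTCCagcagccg
Rps27: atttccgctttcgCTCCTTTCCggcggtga
Rplp2: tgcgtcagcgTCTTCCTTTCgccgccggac
Rplp0: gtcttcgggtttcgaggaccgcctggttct
Rpl41: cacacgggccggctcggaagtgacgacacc
Rpl39l: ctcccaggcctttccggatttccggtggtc
Rpl3l: gagtgttctagctctgtcatttgacctctg
These windows lie at chr2:26910792-26910821 (plus strand) for Rpl7a, chr3:90213634-90213663 (minus) for Rps27, chr7:141447636-141447665 (plus) for Rplp2 and chr5:115559452-115559481 (plus) for Rplp0. Those of Rpl41, Rpl39l and Rpl3l lie at chr10:128549154-128549183 (minus), chr16:10170213-10170242 (plus) and chr17:24727811-24727840 (plus). Rpl7a, Rps27 and Rplp2 have the run at the RefSeq start, and Rplp0, Rpl41, Rpl39l and Rpl3l do not have it there. In the Rpl39l window a run of C and T letters ends at the base before the start. The starts used in this muscle were not measured, so a missing run holds for the annotated start only.

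The 250 bases before the Rpl3l start were also searched, because Rpl3l was the member whose level departed most from the others. They lie at chr17:24727576-24727825 on the plus strand of GRCm38.p6, and the capitals mark matches to the E-box letters CANNTG, which read the same on both strands.
Rpl3l upstream: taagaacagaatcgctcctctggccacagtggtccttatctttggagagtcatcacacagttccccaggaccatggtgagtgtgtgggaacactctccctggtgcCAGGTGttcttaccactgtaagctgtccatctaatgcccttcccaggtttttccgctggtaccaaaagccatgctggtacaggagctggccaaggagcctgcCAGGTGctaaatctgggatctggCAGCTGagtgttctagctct
Rpl3l had 3 matches, and its start was the 1 of the 71 family starts with at least 3 (1.41%), against 12.2% of all starts. The cut of 3 equals the count of Rpl3l itself, so this place in the family gives no independent support. At least 1 match was found at 49.3% of the family's starts and at 66.2% of all starts. The MEF2-like letters CTANNNNTAG, also the same on both strands, occurred at none of the 71 starts (0%) and at 3.20% of all starts. A match describes letters in these windows and not a bound site.

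Values are FPKM, fragments per kilobase of gene scaled to the depth of the library, which puts genes on a common scale. Ranks between genes are uncertain where near-identical copies exist, because the handling of reads with several matches is not given. The libraries held 19420012 to 24663153 reads in genes. L7 replicate 3 stood apart: over genes it correlated with the other libraries at 0.920 to 0.951, where those correlated with each other at 0.979 to 0.989, and results that rest on it are given with and without it. The median log2 difference between L7 and Control over all 14788 genes tested (mean FPKM at least 1) was -0.15, and median of ratios scaling brought it to -0.0020. In bulk tissue, fewer cells of a type and less RNA per cell cannot be told apart. The defining genes of skeletal muscle were present in every library, with Acta1, the skeletal actin gene, at 5718 to 33716 FPKM. The Y-linked gene Ddx3y had over 1000 reads in Control replicates 1 and 3 and L7 replicate 1, and 0, 0 and 1 read in Control replicate 2, L7 replicate 2 and L7 replicate 3. Xist stood at 92.0, 90.9 and 40.7 FPKM in these last libraries and at 0.10 or less in the others. By these genes the sexes were mixed unevenly between the groups, which the labels do not mention.

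The ribosomal protein genes moved nearly as a block from library to library, and most stood lower in L7 than in Control, with no gene past the test. The median FPKM of the 78 members tested was 617, 474 and 508 in Control replicates 1, 2 and 3, and 508, 456 and 369 in L7 replicates 1, 2 and 3. Control replicate 1 was the highest and L7 replicate 3 the lowest, and the groups overlapped. Control replicate 1 was the highest library for 73 of the 78 genes and L7 replicate 3 the lowest for 70. Both held for 68 genes (87.2%), against 23.5% of all genes tested. Libraries are ranked here and below on FPKM without median of ratios scaling. That scaling divides each library by a factor, 0.774 for L7 replicate 3 and 1.03 to 1.10 for the others. It raises L7 replicate 3 against the others, and its member median is then no longer the lowest.

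**Figure D1:**
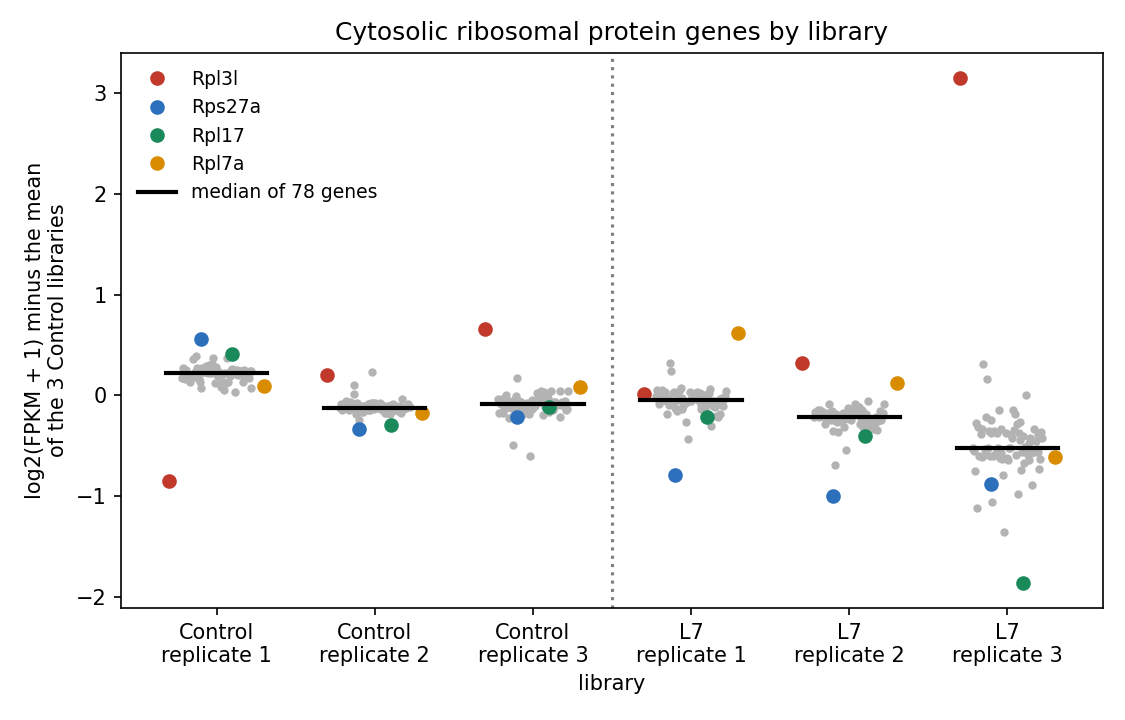
Level of each of 78 ribosomal protein genes in each library (horizontal axis), as log2(FPKM + 1) minus the gene's mean over the 3 Control libraries. Grey points are single genes, black bars their median, and the coloured points of Rpl3l, Rps27a, Rpl17 and Rpl7a lie away from the median in at least 1 library, with Rpl3l above all others in L7 replicate 3.

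On the log2(FPKM + 1) scale, 75 of the 78 members were lower in L7 and 3 were higher (Rpl3l, Rpl24 and Rpl7a), while 70.8% of all genes tested were lower. Their median difference was -0.26, against -0.15 over all genes. Limma called no member at an adjusted p under 0.05, as it called 0 of all 14788 genes (0%), and the smallest adjusted p of a member was 0.580. Without L7 replicate 3 the median of the members was -0.13 and that of all genes -0.03. There 74 members were lower, against 58.1% of all genes, and limma again called 0 of 14849 genes (0%). With median of ratios scaling the median of the members was -0.09 with 61 lower and 17 higher, where 50.4% of all genes were lower. Without Control replicate 1 and with no such scaling it was -0.16, which is -0.03 relative to all genes, against -0.11 with all libraries.

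At an unadjusted limma p under 0.05, 1 member (Rps27a) was lower, where 4.25% of all genes were lower. No member was higher at that p, where 1.65% of all genes were. Every L7 library lay below every Control library for 10 members (12.8%), among them Rpl27a, Rpl35a, Rpl38, Rps21, Rps27, Rps27a and Rps27l. The same order held for 13.7% of all genes, so the share of members is near the background. No member lay above in all L7 libraries, where 5.49% of all genes did. Without L7 replicate 3 the same order below Control held for 10 members against 15.0% of all genes, and the order above Control for 1 member, Rpl7a, against 9.83%.

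**Figure D2:**
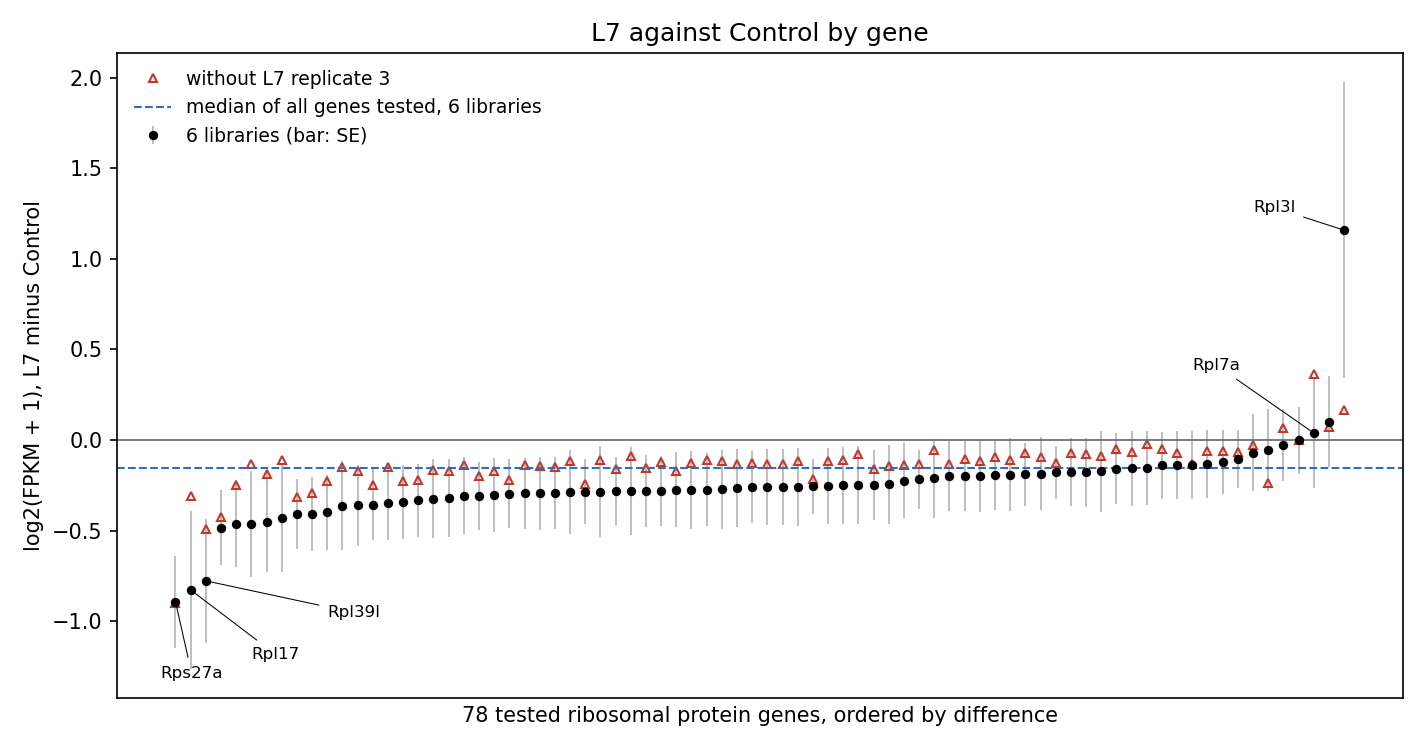
Difference between L7 and Control in log2(FPKM + 1) for the 78 members tested, ordered from lowest to highest (horizontal axis). Black points with bars are the limma estimate and its SE over 6 libraries, open triangles the estimate without L7 replicate 3, and the dashed line the median of all genes tested (-0.15); Rpl3l is at 1.16 with all libraries and at 0.16 without L7 replicate 3.

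The share of the transcriptome in these genes was lower in the L7 libraries on average but overlapped between groups. The 79 genes took 7.43%, 6.01% and 6.10% of the summed FPKM in the Control libraries and 6.29%, 5.66% and 4.47% in the L7 libraries. Control replicate 1 was highest and L7 replicate 3 lowest, and L7 replicate 1 lay above 2 of the Control libraries. The means were 6.51% ± 0.796 (SD, n = 3) in Control and 5.47% ± 0.924 (SD, n = 3) in L7 (exact two-sided permutation p = 0.3; 3 libraries against 3 cannot go below 0.1). The difference of -1.04 percentage points was -0.54 without L7 replicate 3 and -0.58 without Control replicate 1, each with an exact permutation p of 0.6.

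Rplp1 and Rplp0 were the most abundant members of the family, at a mean of 1741 and 1721 FPKM over all libraries. Rplp0, the stalk base protein that anchors the others, stood at 1930, 1616 and 1745 FPKM in Control and 1798, 1651 and 1588 in L7. Rplp1 stood at 2130, 1663 and 1749 in Control and 1777, 1676 and 1448 in L7, and its partner Rplp2 at 512, 461 and 506 in Control and 483, 456 and 433 in L7. Control replicate 1 was the highest and L7 replicate 3 the lowest library for all 3, and the groups overlapped for each. All 3 were lower in L7 with a median log2 difference of -0.11, and none was lower with median of ratios scaling, where the median was 0.07.

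Of the 45 large-subunit members tested, 42 were lower in L7, the median log2 difference was -0.26, and 3 (6.67%) had L7 values all below Control, against 13.7% of all genes. All 30 small-subunit members were lower, with a median of -0.27, and 7 of them (23.3%) had L7 values all below Control, against the same 13.7%. The difference between the subunits was small beside these counts. The summed FPKM of the large subunit divided by that of the small subunit was 1.14, 1.15 and 1.15 in Control and 1.18, 1.16 and 1.18 in L7. The 3 L7 ratios were above all Control ratios (exact permutation p = 0.1, the smallest possible). Without Rps27a and Rpl3l the ratios were 1.17, 1.17 and 1.17 in Control and 1.19, 1.17 and 1.17 in L7, and the groups overlapped.

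The best expressed members apart from the stalk were Rpl41, Rps14 and Rps2. Rpl41, the shortest of the ribosomal proteins, stood at 1926, 1439 and 1443 FPKM in Control and 1522, 1416 and 1028 in L7. Rps14, a protein of the small subunit platform, had 1579, 1254 and 1244 in Control and 1297, 1153 and 990.3 in L7. Both followed the family, with overlapping groups. Rps2, which lies near the entry of the mRNA channel, had 1160, 1067 and 1167 in Control and 1178, 1084 and 1129 in L7, a log2 difference of -0.00 ± 0.19 (SE). It stayed level where most members were lowest, in L7 replicate 3.

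The members tested with the lowest FPKM were Rpl24 at a mean of 1.06, Rpl39l at 3.01, Rpl23a at 18.1, Rpl13a at 19.4 and Rpl12 at 40.1. Rpl24 rested on 5 to 17 reads per library. Ribosomal protein genes have many processed pseudogenes, and a member can lose reads to near-identical copies, which was not tested here. The 14 genes named as pseudogenes of Rpl23a held 86.0 FPKM in sum. Those named after Rpl13a and Rpl12 held only 0.09 and 0.03 FPKM, and no gene was so named after Rpl24 or Rpl39l. Copies under other names were not counted, so low sums do not show that few reads went to copies. Rpl10l, an autosomal retrogene copy of Rpl10, was at 0 in every library and was not tested.

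Rpl3l departed further from the common profile than any other member. Rpl3 (chr15:80077791-80091868, minus strand), the ubiquitous form, stood at 564, 432 and 423 FPKM in Control and 475, 396 and 224 in L7. Rpl3l (chr17:24727820-24736143, plus strand, mm10) stood at 19.0, 40.5 and 56.0 in Control and 35.4, 44.1 and 320 in L7. L7 replicate 3 was the lowest library for Rpl3 and by far the highest for Rpl3l, at 7.88 times the median of the other 5, and the other L7 libraries lay within the Control range for Rpl3l.

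The log2 difference of Rpl3l was 1.16 ± 0.82 (SE; limma adjusted p = 0.580; exact permutation p = 0.5), and 0.16 without L7 replicate 3. That of Rpl3 was -0.43 ± 0.30 (SE; limma adjusted p = 0.580; exact permutation p = 0.4), and -0.11 without L7 replicate 3. Neither passed the test in any of 14 alternative settings. Rpl3l made up 3.26%, 8.58% and 11.7% of the summed FPKM of the pair in Control, and 6.93%, 10.0% and 58.7% in L7. The sum of both was 583, 473 and 479 FPKM in Control and 511, 440 and 544 in L7, so L7 replicate 3 lay within the Control range for the sum. The log2 ratio of Rpl3l to Rpl3 differed by 1.59 (exact permutation p = 0.5), by 0.28 without L7 replicate 3 (p = 1, exact) and by 1.03 without Control replicate 1.

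Elongation factor 1A, which delivers aminoacyl-tRNA to the ribosome, has a like pair: Eef1a1 is ubiquitous and Eef1a2 replaces it in mature muscle. Eef1a1 stood at 4378, 3784 and 3723 FPKM in Control and 4201, 3852 and 2215 in L7. Eef1a2 stood at 71.3, 156 and 197 in Control and 163, 227 and 794 in L7. The extreme libraries were those of the L3 pair: Control replicate 1 was lowest and L7 replicate 3 highest for the muscle form. The log2 ratio of Eef1a2 to Eef1a1 differed by 1.503 (exact permutation p = 0.3), and by 0.54 without L7 replicate 3 (exact permutation p = 0.6).

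**Figure D3:**
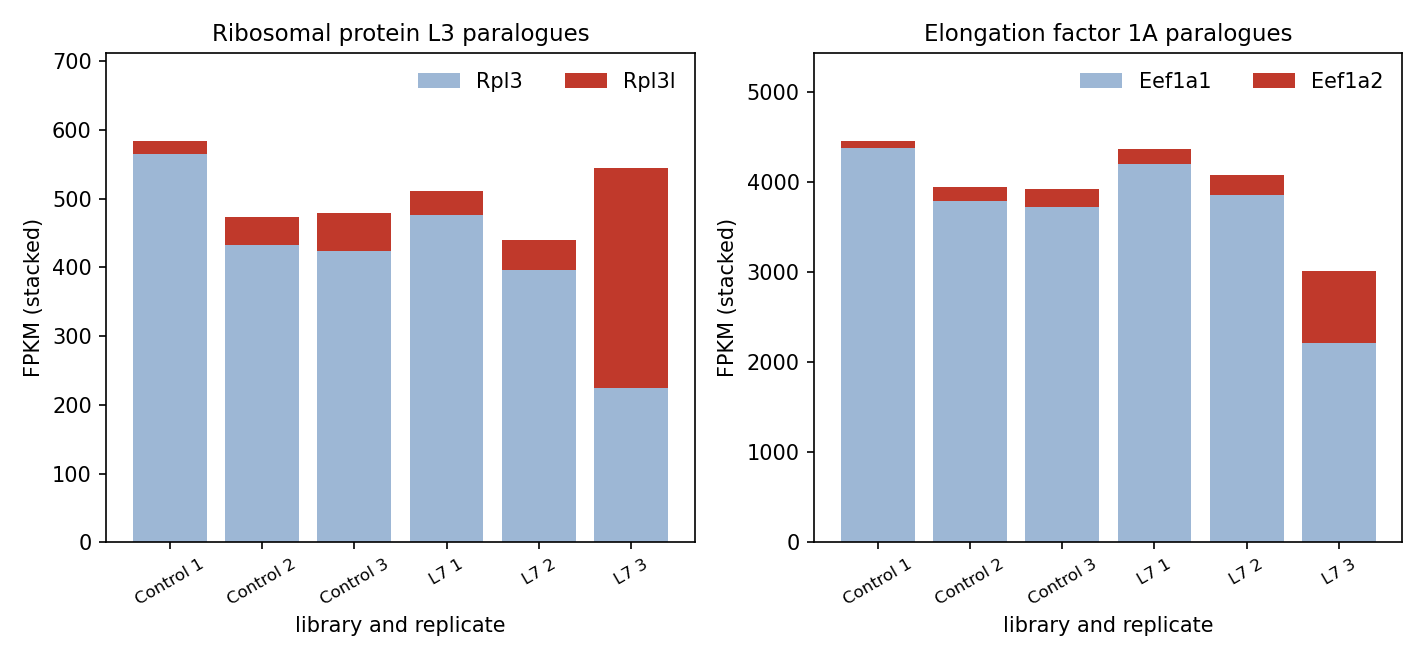
Stacked FPKM of Rpl3 and Rpl3l (left) and of Eef1a1 and Eef1a2 (right) in each library (horizontal axis, group and replicate). The red part is the muscle paralogue, which is largest in L7 replicate 3 (Rpl3l 320 FPKM, Eef1a2 794 FPKM) and smallest in Control replicate 1 (19.0 and 71.3 FPKM).

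Markers of adult fast fibres shared their lowest and highest libraries with Rpl3l. All 25 genes of the fast sarcomere list were higher in L7, with a median log2 difference of 0.82 (0.36 without L7 replicate 3), and 13 of them lay above Control in every L7 library, where 5.49% of all genes did. Their summed FPKM was 33404 to 46487 in Control and 48964 to 142580 in L7, and none was at 0. The sum was lowest in Control replicate 1 and highest in L7 replicate 3, as for Rpl3l. Between these the order differed. Control replicate 3 lay above L7 replicates 1 and 2 for Rpl3l (56.0 against 35.4 and 44.1 FPKM). For the sum it lay below both (42666.5 against 48964 and 53388 FPKM). The part of these markers in the results for Rpl3l and for the family was not tested.

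Rps27a, whose product is a fusion of ubiquitin with a small-subunit protein, had the smallest p-value of the family. It lies at chr11:29545846-29548109 on the minus strand (mm10). Its level was 559, 300 and 326 FPKM in Control and 218, 189 and 206 in L7, so every L7 library was below every Control library. The log2 difference was -0.89 ± 0.25 (SE; limma adjusted p = 0.580), and -0.90 without L7 replicate 3. It was -0.61 without Control replicate 1. In the authors' deposited table its fold of L7 over Control was 0.594 with an unadjusted p of 0.0352 and an adjusted p of 1.

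In that table of 31690 genes with a p, the share with an unadjusted p under 0.05 was 0.751% on the lower side and 0.382% on the higher side, and Rps27a was the 1 member among them. It was also the only gene behind the ribosome terms in the authors' deposited enrichment table, such as cytosolic small ribosomal subunit (1 of 45 genes, corrected p of 1 in the authors' deposited table). Relative to the median of the family within each library, Rps27a differed by -0.63 on the log2 scale (exact permutation p = 0.1, the smallest possible). Without L7 replicate 3 it differed by -0.76. Rps27a was singled out by its p-value in these same libraries, so that permutation test gives no independent support.

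The difference of Rps27a was smaller when its pseudogene copies were counted with it. Rps27a-ps2, a processed pseudogene on chromosome 9, held 95.3, 237 and 147 FPKM in Control and 226, 293 and 165 in L7. It was low in Control replicate 1, where Rps27a was highest, and high in L7 replicate 2, where Rps27a was lowest. Rps27a and the 2 genes named as its pseudogenes together stood at 655, 537 and 473 FPKM in Control and 444, 482 and 370 in L7.

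These sums overlapped between the groups, and their log2 difference was -0.36 ± 0.20 (SE; limma adjusted p = 0.580; exact permutation p = 0.2), nearer to the family median of -0.26. The gene's share of the sum was 85.4%, 55.8% and 68.9% in Control and 49.1%, 39.2% and 55.6% in L7, without overlap. The exact permutation p was 0.1, the smallest possible, for a gene picked from the same libraries. The sources used here do not say how the counting divided reads between such copies, so the level of Rps27a alone is uncertain.

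Of the 79 members, 57 had at least 1 gene named as their pseudogene, and in 20 these held over 10% of the summed FPKM. Only genes with the member's symbol and the ending -ps were counted, so copies under other names are missing from the sums. With each member summed with them, 75 were again lower, the median was again -0.26, and 8 had L7 values all below Control. Rpl17, a large-subunit protein beside the exit tunnel, stood at 309, 189 and 213 FPKM in Control and 199, 175 and 62.9 in L7. Its log2 difference was -0.83 ± 0.44 (SE; limma adjusted p = 0.580), and -0.31 without L7 replicate 3. Its 10 named pseudogenes held more than the gene itself, and the sums were 960, 789 and 829 in Control and 809, 777 and 576 in L7, a log2 difference of -0.26.

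**Figure D4:**
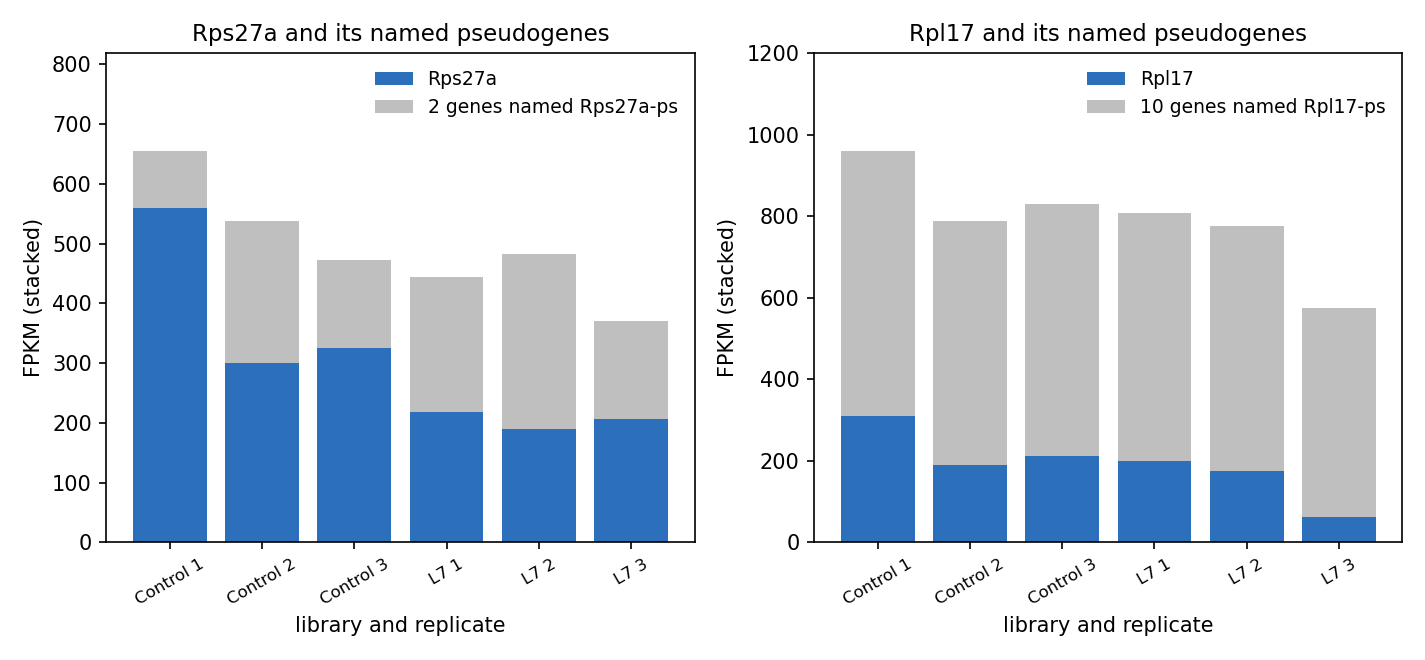
Stacked FPKM of Rps27a (left) and Rpl17 (right) with the genes named as their pseudogenes, in each library (horizontal axis, group and replicate). The blue part of Rps27a is lower in all L7 libraries (189 to 218 FPKM) than in Control (300 to 559 FPKM), while the full bars overlap between the groups (370 to 482 against 473 to 655 FPKM).

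After Rps27a, the smallest p-values of lower members were those of Rpl30, Rpl39l, Rps21 and Rpl38. Rpl30, a large-subunit protein, stood at 460, 350 and 377 FPKM in Control and 352, 242 and 259 in L7. Its log2 difference was -0.48 ± 0.21 (SE; limma adjusted p = 0.580), and -0.35 when summed with its 9 named pseudogenes. The groups overlapped by L7 replicate 1 alone.

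Rps21, a small-subunit protein, stood at 745, 584 and 567 FPKM in Control and 506, 501 and 416 in L7. Rpl38, a large-subunit protein, stood at 542, 396 and 390 in Control and 364, 350 and 281 in L7. Every L7 library was below every Control library for both, and for Rpl38 also when summed with its 2 named pseudogenes. Each had a log2 difference of -0.41 and a limma adjusted p of 0.580.

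Rpl7a, a large-subunit protein, went the other way in L7 replicates 1 and 2. It stood at 189, 158 and 189 FPKM in Control and 273, 193 and 116 in L7, a log2 difference of 0.04 ± 0.30 (SE; limma adjusted p = 0.950) and of 0.37 without L7 replicate 3. L7 replicates 1 and 2 lay above every Control library and L7 replicate 3 below. When summed with its 12 named pseudogenes its log2 difference was -0.05 with all libraries and 0.25 without L7 replicate 3.

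The other paralogue pairs mostly kept to the family. Rpl39, at the wall of the exit tunnel, stood at 734, 578 and 536 FPKM in Control and 584, 517 and 353 in L7. Its paralogue Rpl39l, best known from testis, stood at 5.29, 4.71 and 2.21 in Control and 2.59, 2.35 and 0.90 in L7, a log2 difference of -0.78 ± 0.34 (SE; limma adjusted p = 0.580) and of -0.49 without L7 replicate 3. The groups overlapped for both.

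Rps27, a zinc-binding small-subunit protein, stood at 975, 788 and 797 FPKM in Control and 736, 693 and 458 in L7. Its p53-responsive paralogue Rps27l stood at 236, 191 and 222 in Control and 185, 186 and 171 in L7. All L7 values were below Control for both. The log2 ratio of Rps27l to Rps27 differed by 0.21 (exact permutation p = 0.3).

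Rpl22 stood at 260, 218 and 213 FPKM in Control and 224, 198 and 151 in L7, and its paralogue Rpl22l1 at 24.9, 19.7 and 16.3 in Control and 17.2, 15.5 and 10.8 in L7. The log2 ratio of Rpl22l1 to Rpl22 differed by -0.18 (exact permutation p = 0.2). Over the 10 permutation tests of this kind on single values, adjusted p-values were 0.429 to 0.5. The X-linked members Rps4x, Rpl10, Rpl36a and Rpl39 were all lower in L7, with a median log2 difference of -0.30 and overlapping groups. Whether the uneven mix of sexes plays a part in this was not tested.

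Rpl7 stood at 407 to 686 FPKM and its relative Rpl7l1 at 22.3 to 38.2, both lowest in L7 replicate 3, and Rpl36al was under 1 FPKM in every library. Of 8 ribosomal protein genes whose symbols fall outside the rule, 7 were tested, 6 were lower and 1, Rps27rt, was higher, with a median of -0.18. Rpsa, the laminin receptor and small-subunit protein, stood at 1279, 1014 and 1103 FPKM in Control and 1140, 1012 and 876 in L7. Fau, a fusion of a ubiquitin-like protein with a small-subunit protein, stood at 687 to 875 in Control and 606 to 790 in L7. Rps27rt stood at 105 to 135 in Control and at 118, 115 and 191 in L7, its highest value again in L7 replicate 3.

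The members spread unequally around the family median. The SD over the 6 libraries of log2(FPKM + 1) minus the family median was 1.58 for Rpl3l, 0.54 for Rpl17, 0.45 for Rpl39l and 0.42 for Rps27a. It was 0.02 for Rps3 and Rpl11 and 0.03 for Rpl6, the members that kept closest to the family.

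Genes that make and regulate ribosomes were described beside the family, and none of them passed limma. Their counts of lower genes stand beside 70.8% of all genes tested that were lower. Of 40 ribosome biogenesis genes, 38 were lower in L7 with a median log2 difference of -0.28 (-0.12 without L7 replicate 3), and 12 had L7 values all below Control, where 13.7% of all genes did. Npm1, a nucleolar chaperone of ribosome assembly, stood at 321, 234.4 and 250 FPKM in Control and 234.0, 204 and 123 in L7. Ncl, nucleolin, stood at 156, 128 and 134 in Control and 125, 112 and 79.0 in L7.

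Both were lower in every L7 library, with limma adjusted p = 0.580. Of 14 genes of RNA polymerase I and its factors, 12 were lower with a median of -0.23 (-0.14 without L7 replicate 3), and 7 had L7 values all below Control, again beside 13.7% of all genes. Polr1d, a subunit shared by polymerases I and III, stood at 64.1, 60.2 and 61.1 FPKM in Control and 57.2, 47.6 and 58.5 in L7. Mybbp1a, a nucleolar regulator of rRNA synthesis, stood at 62.0 to 73.7 in Control and 53.4 to 67.7 in L7.

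Of 30 initiation factor genes, 26 were lower with a median of -0.14 (-0.04 without L7 replicate 3), close to that of all genes. Eif4a1, the helicase of the cap-binding complex, stood at 500, 397 and 418 FPKM in Control and 394, 343 and 185 in L7. Eif4g2, a scaffold of initiation, stood at 513 to 572 in Control and 364 to 518 in L7. Of 10 elongation factor genes 5 were lower and 5 higher (median -0.01, and 0.04 without L7 replicate 3). Of 16 mTORC1 and pyrimidine-tract regulators 10 were lower and 6 higher (median -0.03). The median of these regulators was 0.10 without L7 replicate 3 and 0.14 with median of ratios scaling, so its sign turned. Akt1, a kinase upstream of mTORC1, stood at 331 to 375 FPKM in Control and at 238 in L7 replicate 3, its lowest library. Rps6ka3, an RSK kinase, stood at 52.7 to 59.5 FPKM in Control and 40.2 to 55.4 in L7.

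Markers of proliferating and immune cells shared with the family that L7 replicate 3 was the lowest library. Beside the counts of lower genes in this paragraph, 70.8% of all genes tested were lower. All 20 cell cycle genes were lower in L7 (median -0.52, and -0.11 without L7 replicate 3), with sums of 537 to 579 FPKM in Control and 222 to 535 in L7. Of 20 macrophage and monocyte genes 17 were lower (median -0.22, and 0.04 without L7 replicate 3), with sums of 5635 to 8417 in Control and 3638 to 7713 in L7. Of 7 neutrophil genes tested 6 were lower (median -0.77, and -0.09 without L7 replicate 3), with sums of 190 to 310 in Control and 55.2 to 341 in L7. Of 13 lymphocyte genes tested 10 were lower (median -0.19, and -0.07 without L7 replicate 3), with sums of 218 to 417 in Control and 136 to 275 in L7. In all 4 lists L7 replicate 3 had the lowest sum, but Control replicate 1 had the highest sum only for the cell cycle genes. The macrophage and lymphocyte sums were highest in Control replicate 3 and the neutrophil sum in L7 replicate 1. Of 12 fibroblast and matrix genes 11 were lower (median -0.15), and L7 replicate 3 again had the lowest sum (17127 FPKM). Of 13 regenerating fibre genes 11 were lower (median -0.20, and 0.11 without L7 replicate 3). Their sums were nevertheless higher in L7, at 4735 to 5988 FPKM against 3134 to 4549 in Control. Of 8 endothelial genes 4 were lower, and the sum in L7 replicate 3 (292 FPKM) lay within the Control range. No gene was at 0 in all libraries, and their part in the family's differences was not tested.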

How the data were processed

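The deposited FPKM table was made by the authors, 1 value per gene and library. Another deposited table compares the groups by a normalised signal (mean of reads over size factors), a log2 fold change and a p-value, per the file headers, and a further one holds enrichment p-values. The submitters' processing notes name mm10, DESeq 1.12.0, HISAT2 2.0.4, TopHat2 2.0.12 and Bowtie2 2.2.3, without their roles. The sources used here do not give the annotation, the counter, its strand setting or its handling of reads with several matches. Symbols and coordinates came from GENCODE M21, matched by Ensembl identifier for 51719 genes.

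The steps between FPKM values and the group means gave back whole reads for 152096 of 152096 values above 0 (100%, within 0.05), used for depth and for limma voom. Group was the only factor in a two-sided limma-trend test (limma 3.58.1 under R 4.3.3) of log2(FPKM + 1). It took the 14788 genes whose mean FPKM was 1 or more, and genes were called at a Benjamini-Hochberg adjusted p under 0.05. Log2 differences on that scale understate changes at low FPKM. Single values had exact permutation tests over libraries. The script was tested on simulated data.

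The members, lists and tests were chosen with earlier results of these data known. Named members are the paralogue pairs, the stalk, the 5 of highest and 5 of lowest level, those with the 5 smallest p in each direction, and any below the level filter. In other lists they are the 2 of highest level. Rpl17, Rps3, Rpl11, Rpl6, the members with groups that did not overlap and the pseudogenes were named after their values were seen. Alternatives were a pseudocount of 0.1, no level filter, median of ratios scaling, array weights, a replicate block and leaving out each library. Voom on recovered reads, shares of recovered reads, sums with named pseudogenes and the list of mitochondrial ribosomal proteins were chosen after seeing the data. The search before the Rpl3l start was also chosen with its level known.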

Additional observations from a re-analysis of the deposited data

How the results depend on the processing

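The number of all genes passing limma was 0 in the reported fit, 3 with array weights, 1 with median of ratios scaling and L7 replicate 3 left out, and 0 to 1 when each library was left out in turn (1 without L7 replicate 1). The cause was not tested. No member passed in any of 14 alternatives. Over them the median log2 difference of the members was -0.37 to -0.09 (-0.22 to -0.03 relative to all genes), 59 to 76 members were lower, and these kept their direction: Rpl3l 0.16 to 1.73, Rpl3 -0.65 to -0.08 and Rps27a -1.06 to -0.36 (the last with its pseudogenes). The difference in the share of FPKM was -1.45 to -0.54 points with each library left out, and that in the share of reads -0.47. The stalk median turned from -0.11 to 0.07 with median of ratios scaling, and Rpl7a from 0.04 to -0.05 with its pseudogenes. With a replicate block 0 genes passed, so it changed no call, and the median of -0.26 could not change in this balanced design. Same-numbered Control and L7 libraries had correlated deviations of 0.32, -0.07 and 0.09, so the numbers were not taken to pair them. Depth limits Rpl24, Rpl39l and Rpl36al, and 3 libraries a group cannot give an exact p under 0.1.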

Other observations

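Mitochondrial ribosomal protein genes, whose products make the ribosome of the mitochondrion, did not share the profile of the cytosolic family. Of 78 such genes 77 were tested and Mrpl53 was at 0 in every library. In L7, 28 were lower and 49 higher, with a median log2 difference of 0.07 (0.00 without L7 replicate 3), and none passed limma. Their summed FPKM was 2572, 2437 and 2587 in Control and 2578, 2422 and 3114 in L7. It was highest in L7 replicate 3, where the FPKM of the cytosolic genes, without median of ratios scaling, was lowest. Mrps21, of the small mitochondrial subunit, stood at 154, 142 and 161 FPKM in Control and 134, 145 and 218 in L7. Mrpl52, of the large mitochondrial subunit, stood at 115, 95.7 and 100.4 in Control and 96.7, 79.8 and 77.4 in L7.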
